A study of Mus musculus with 17 samples.

Results

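This account follows 35 genes of the p53 pathway in newly made RNA from mouse embryonic stem cells. The genes were taken as a given list of symbols: Trp53 itself, its inhibitors, and genes described as direct p53 targets. All 35 were among the 25899 symbols of the deposited count table, and all 35 passed the filter on low counts, which kept 14907 genes. The rule uses symbols and no measured value, but the list was chosen with earlier results of these data known.

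The cells were E14tg2a embryonic stem cells of 129SV background. In every group, controls included, Erk1/2 were knocked out and FLAG-ERK2 Q103A, an ERK2 whose altered ATP pocket lets PP1 block it, was expressed from a cDNA instead. All cells also carried cRAF-ErT2, a RAF fused to a receptor domain that 4-hydroxytamoxifen (4OHT) binds, so that 4OHT drives ERK through MEK. The FGF receptor inhibitor PD173074 (250 nM) had been added to serum medium containing LIF 24 h earlier in all groups, and cells took up 5 mM ethynyl uridine for the last 15 min so that new RNA could be captured. The 6 groups were DMSO (no 4OHT, n = 2, clones b and c), 4OHT (250 nM for 2 h), MEKi (a MEK inhibitor at 1 µM), MEKi with 4OHT, PP1 (2 µM) and PP1 with 4OHT, with n = 3 (clones a, b and c) in each group but DMSO. How long cells without 4OHT were kept in MEKi or PP1 is not clear from the labels, which name no DNA-damaging agent. The clones belong to 1 cell line, so p-values measure only the spread between these clones.

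The p53 protein, encoded by Trp53, is a transcription factor that stress stabilises, above all DNA damage. It binds paired copies of a short element and raises genes that halt the cell cycle, repair DNA, trigger death or restrain p53 in turn, the last through the ubiquitin ligase Mdm2, its partner Mdm4 and the phosphatase Ppm1d. In embryonic stem cells p53 is known for promoting differentiation after damage. Several of its targets, among them Cdkn1a, Btg2, Plk2, Plk3, Gadd45a and Gdf15, are also known as early genes that mitogens can induce. The series asks what ERK signalling does to transcription, and the comparisons below ask it of these genes.

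Promoters from RefSeq (build GRCm38.p6) show how unlike Plk3, Cdkn1a, Mdm2 and Plk2 are in the letters before their start sites. The table matched 27 of the 35 genes, with 36 promoters of 250 bases among 32851. Perp, Pmaip1 and Tnfrsf10b, which also rose with 4OHT, were not among the genes matched. The promoters of the largest called rises with 4OHT that the table held are printed here 5′ to 3′. Capitals mark p53 half-sites, ETS motifs and cAMP response elements. Cdkn1a has 2 entries.

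Plk3, chr4:117133964-117134213, minus strand: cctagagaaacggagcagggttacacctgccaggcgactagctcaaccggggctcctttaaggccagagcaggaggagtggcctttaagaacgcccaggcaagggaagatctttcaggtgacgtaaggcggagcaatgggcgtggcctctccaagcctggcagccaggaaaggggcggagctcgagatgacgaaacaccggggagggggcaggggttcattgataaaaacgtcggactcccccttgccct

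Cdkn1a, chr17:29090729-29090978, plus strand: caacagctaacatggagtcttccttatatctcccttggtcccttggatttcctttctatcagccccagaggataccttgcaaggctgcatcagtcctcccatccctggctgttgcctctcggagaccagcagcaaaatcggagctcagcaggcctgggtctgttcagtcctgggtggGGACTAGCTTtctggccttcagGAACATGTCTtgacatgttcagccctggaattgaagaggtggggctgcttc

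Cdkn1a, chr17:29093519-29093768, plus strand: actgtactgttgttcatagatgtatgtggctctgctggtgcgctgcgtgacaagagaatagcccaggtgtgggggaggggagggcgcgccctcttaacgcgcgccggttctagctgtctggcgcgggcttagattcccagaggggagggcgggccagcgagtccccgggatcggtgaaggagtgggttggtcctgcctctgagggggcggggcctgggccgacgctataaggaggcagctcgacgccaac

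Mdm2, chr10:117710759-117711008, minus strand: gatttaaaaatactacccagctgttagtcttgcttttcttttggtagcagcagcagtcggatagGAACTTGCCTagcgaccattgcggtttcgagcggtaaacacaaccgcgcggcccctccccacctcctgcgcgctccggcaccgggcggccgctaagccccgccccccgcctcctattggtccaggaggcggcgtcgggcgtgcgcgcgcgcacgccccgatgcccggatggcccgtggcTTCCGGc

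Plk2, chr13:110394794-110395043, plus strand: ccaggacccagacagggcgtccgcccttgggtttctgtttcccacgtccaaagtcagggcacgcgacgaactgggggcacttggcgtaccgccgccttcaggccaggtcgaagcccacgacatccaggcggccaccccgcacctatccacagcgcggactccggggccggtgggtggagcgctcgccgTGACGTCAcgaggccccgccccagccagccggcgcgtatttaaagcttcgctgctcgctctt

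In the first Cdkn1a promoter, p53 half-sites begin 73 and 51 bases before the start site. With up to 13 bases allowed between them and no mismatch, they make the only full p53 site found among the 36 promoters. The letters directly after the half-site at 51 bases miss the half-site pattern at their first letter alone, so that adjacent pair was not counted. The Mdm2 promoter has a half-site 186 bases and an ETS motif 7 bases before its start, the Plk2 promoter has a cAMP response element 62 bases before its start, and none of the motifs searched lies in the Plk3 promoter. The printed motifs do not overlap each other. Searched on both strands over all promoters, the p53 half-site was in 7.13% of all and in 12 of the 36 (33.3%), the full site in 0.0639% and 1, the ETS motif CCGGAA in 12% and 5, the cAMP response element TGACGTCA in 1.55% and 3 (Btg2, Plk2 and Ppm1d), the EGR motif GCGNGGGCG in 4.7% and 6, the AP-1 motif TGANTCA in 6.75% and 2 (Fas and Mdm4) and the CArG box in 1.47% and 1 (Tigar). A match describes letters and is not a bound site, and known p53 elements of Mdm2, which lie in the first intron, are outside this window.

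Library totals ran from 5239690 to 11093390 counts, of which the 35 genes took 0.222% to 0.404%. Summed over libraries, a member had a median of 8639 counts against 3070 for all tested genes, and the lowest sums were those of Gdf15 (239), Fas (247), Dram1 (293) and Pmaip1 (848). The shares of all genes given below were not matched to the members in depth. Within a group the members' median coefficient of variation was 5.82% to 10.6%. A share of 9.38% (4OHT, clone a) to 42% (PP1, clone a) of all counts lay in 14 loci. They were chosen because their share followed that of Cdk8 between libraries (correlation of at least 0.95, mean count of at least 1000). As the background of a library, the 5th percentile of CPM per Mb was taken over 1469 genes of at least 150000 bases. It stood at 11.2 in MEKi clone a and 8.43 in MEKi with 4OHT clone b, against 1.62 to 5.12 elsewhere. Levels below are CPM (each count over its library's total) with TMM scaling. The background was not subtracted. The 8 stem cell markers summed to 2890 to 3840 CPM, while the 7 fibroblast markers summed to 0.927 to 3.79 and no other marker list passed 17.4. Reads of overlapping genes may be mixed. The strand setting of the counting is not given in the sources used here, which makes Ddb2 (Acp2 on the other strand) and Plk3 (Tctex1d4 on the other strand) uncertain. Bax is uncertain under any strand setting, since Gm45808 lies on the same strand and covers 819 of its 1576 exonic bases.

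After 2 h of 4OHT the p53 pathway genes did not move as a block. Of the 35, 8 rose and 15 fell against DMSO (edgeR quasi-likelihood test, Benjamini-Hochberg adjusted p under 0.05). Over all 14907 genes, 25.7% rose and 26.3% fell, so the members that rose (22.9%) were near the background and those that fell (42.9%) were above it. The members' median log2 fold change was -0.19, against -0.02 for all genes, and 11 members had a positive value. Those that rose were Mdm2, Cdkn1a, Plk2, Plk3, Pmaip1, Tnfrsf10b, Eda2r and Perp, and the falls took in most genes of DNA repair and metabolism. The 4OHT and DMSO libraries did not overlap for 25 of the 35 members, among them all that were called, and for 66.5% of all genes. From this it follows that each called member moved the same way in both clones that the groups share, which is no separate evidence. In bulk RNA, fewer cells of a kind and less new RNA per cell cannot be told apart. The 5 trophoblast markers summed to 9.48 to 17.2 CPM with 4OHT and 4.91 to 5.26 in DMSO. Only 1 of 3 tested was called higher, and their log2 fold changes ran from 0.31 to 6.79. The 3 neural markers summed to 5.36 to 7.07 and 10.3 to 10.9 (1 of 2 tested lower). Of the 8 stem cell markers 1 was higher and 3 lower, and of 4 tested endoderm markers 1 was lower. The part of other cell types in the changes was not tested.

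**Figure D1:**
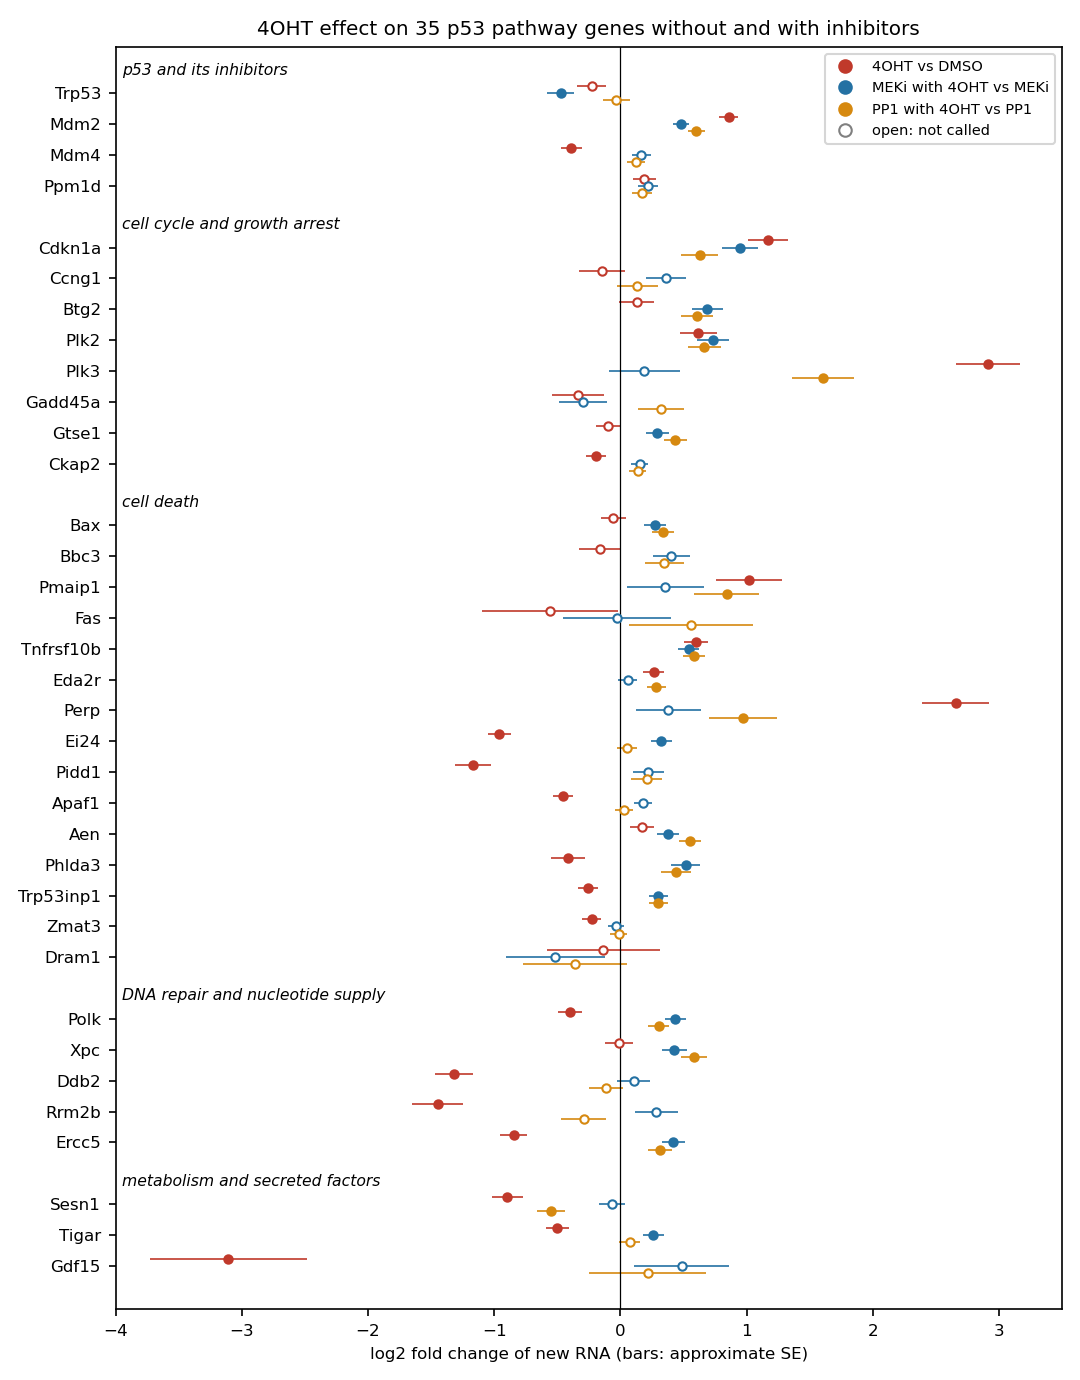
Log2 fold change of new RNA (horizontal axis) for each of the 35 p53 pathway genes, grouped by role, in 4OHT vs DMSO (red), MEKi with 4OHT vs MEKi (blue) and PP1 with 4OHT vs PP1 (orange). Bars are approximate standard errors and filled points passed an adjusted p of 0.05. The red points spread from -3.11 (Gdf15) to 2.92 (Plk3), and most blue and orange points lie between 0 and 1.

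Among p53 and its inhibitors, 1 of 4 rose and 1 fell (25% each, near the 25.7% and 26.3% of all genes). In what follows, values in a group are given in the order of clones a, b and c, and for DMSO b and c. Trp53 (chromosome 11, 69580359 to 69591873, GRCm38) stood at 148 and 141 CPM in DMSO and at 102, 147 and 122 with 4OHT. The 4OHT library of clone b lay within the DMSO range, and the change did not pass (log2 fold change -0.23 ± 0.12 SE, edgeR adjusted p = 0.11). Mdm2 (chromosome 10, 117688875 to 117710758), the ligase that marks p53 for destruction, stood at 271 and 260 CPM in DMSO and at 489, 499 and 455 with 4OHT. It rose 1.81-fold with no overlap between groups (0.86 ± 0.07, edgeR adjusted p = 1.1e-09). Mdm4 (chromosome 1, 132959484 to 133030561), the partner that blocks the activation domain of p53, went the other way, from 433 and 419 CPM to 353, 306 and 318. It fell by 0.39 ± 0.08 on the log2 scale (adjusted p = 0.00028), again with no overlap. Ppm1d, a phosphatase that switches p53 signalling off, had a log2 fold change of 0.19 (adjusted p = 0.081) and rose with clone as a block (0.22, adjusted p = 0.031).

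The genes of cell cycle and growth arrest held the largest rise of the list. Of these 8 genes 3 rose and 1 fell (37.5% and 12.5%, against 25.7% and 26.3% of all genes). Plk3 (chromosome 4, 117128655 to 117133963), a polo-like kinase of the stress response, stood at 7.07 and 7.96 CPM in DMSO and at 50.4, 61.7 and 58.6 with 4OHT. That is a 7.55-fold rise (log2 2.92 ± 0.26, edgeR adjusted p = 1.3e-08), with every 4OHT library far above both DMSO libraries. Tctex1d4, whose span on the other strand covers 84 exonic bases of Plk3, had 374 counts in all against 2645 for Plk3. Tctex1d4 rose by 2.32 ± 0.36. Cdkn1a (chromosome 17, 29090976 to 29100727), the p21 inhibitor of cyclin-dependent kinases, went from 33.2 and 44.6 CPM to 71.2, 99.1 and 93.1. The groups did not overlap and the rise was 2.25-fold (1.17 ± 0.16, adjusted p = 3.2e-06). Plk2, another polo-like kinase, rose 1.54-fold (0.62 ± 0.14). Ckap2, a spindle protein, fell by 0.19 ± 0.08. The cyclin Ccng1 (-0.14), the antiproliferative factor Btg2 (0.13), the stress sensor Gadd45a (-0.33) and the p53-binding protein Gtse1 (-0.10) did not pass. Of the 6 members that mitogens are also known to induce, 3 rose (Cdkn1a, Plk2 and Plk3), 1 fell (Gdf15) and 2 (Btg2 and Gadd45a) did not pass.

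Of the cell death genes 4 of 15 were higher and 6 lower (26.7% and 40%). Over all genes 25.7% rose and 26.3% fell, so the rises were near the background. Perp (chromosome 10, 18845020 to 18857073), a membrane protein of desmosomes linked to p53-dependent death, stood at 6.01 and 5.37 CPM in DMSO and at 40.5, 37.9 and 29.6 with 4OHT. It rose 6.31-fold with no overlap (2.66 ± 0.26, edgeR adjusted p = 2.6e-08). Pmaip1, which encodes the BH3-only protein Noxa, went from 4.36 and 6.39 CPM to 9.93, 11.9 and 10.9, a 2.02-fold rise without overlap (1.02 ± 0.26, adjusted p = 0.0022). The receptors Tnfrsf10b (0.60 ± 0.10) and Eda2r (0.26 ± 0.08) also rose. On the other side, Pidd1 (chromosome 7, 141438113 to 141444025), the platform of caspase-2 activation, went from 30.3 and 24.9 CPM to 10.4, 14.7 and 12.4. It fell 2.25-fold (-1.17 ± 0.14, adjusted p = 3.5e-07), and the libraries of the groups were well apart. Ei24 (chromosome 9, 36779159 to 36797393), an endoplasmic reticulum protein of autophagy, went from 108 CPM in both DMSO libraries to 59.1, 55.5 and 51.9, a fall of 0.96 ± 0.09 on the log2 scale. Apaf1, the core of the apoptosome (-0.45 ± 0.08), Phlda3, an inhibitor of AKT (-0.42 ± 0.13), Trp53inp1, a p53 cofactor (-0.26 ± 0.08), and Zmat3, an RNA-binding protein (-0.23 ± 0.07), fell too. Bax (-0.06) and Bbc3 (-0.16), mainstays of mitochondrial death, and Fas (-0.56), Aen (0.17) and Dram1 (-0.13) did not pass, though Aen rose with clone as a block (0.21, edgeR adjusted p = 0.037). Gm45808, which overlaps Bax on the same strand and had 511 counts in all against 14689 for Bax, fell by 0.88 on the log2 scale. Fas and Dram1 had at most 29 and 28 counts in any library, which leaves wide errors of 0.54 and 0.45.

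DNA repair and nucleotide supply showed falls in 4 of 5 genes (80%, against 26.3% of all genes) and no rise. Rrm2b (chromosome 15, 37923952 to 37961318), the p53-induced subunit of ribonucleotide reductase, stood at 11 and 11.6 CPM in DMSO and at 3.67, 4.65 and 4.22 with 4OHT. It fell 2.73-fold (-1.45 ± 0.20, edgeR adjusted p = 1.9e-06), and no 4OHT library came near the DMSO libraries. Ddb2 (chromosome 2, 91211572 to 91236982), which senses ultraviolet damage, went from 32.3 and 28.6 CPM to 14.2, 9.65 and 12.2, a 2.49-fold fall without overlap (-1.32 ± 0.15, adjusted p = 9.7e-08). Acp2, whose span on the other strand covers 652 exonic bases of Ddb2, had 2776 counts in all against 3597 for Ddb2. Acp2 fell by 0.58 ± 0.16. Ercc5 (chromosome 1, 44147744 to 44181260), an excision repair nuclease, went from 50.7 and 43.2 CPM to 25.9, 26.9 and 25.8. It fell by 0.84 ± 0.11 on the log2 scale, and its 4OHT libraries were the closest together of the 35 genes (coefficient of variation 2.3%). The translesion polymerase Polk fell by 0.40 ± 0.09, and Xpc, the damage sensor of excision repair, stood at -0.01 ± 0.11 (adjusted p = 0.93).

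All 3 genes of metabolism and secreted factors fell, as did 26.3% of all genes. Gdf15 (chromosome 8, 70629393 to 70632456), a secreted stress cytokine, stood at 1.4 and 2.41 CPM in DMSO and at 0, 0.345 and 0.352 with 4OHT. It was sparse: the DMSO libraries held 43 counts together and the 4OHT libraries 5, a rate 9.14 times higher in DMSO (95% interval of counting error 3.63 to 29.6), and the fitted log2 fold change was -3.11 ± 0.62 (edgeR adjusted p = 0.00018). The count of 0 in clone a allows up to 0.298 CPM. Sesn1, a sestrin that curbs mTORC1, fell by 0.90 ± 0.12, and Tigar, a fructose bisphosphatase that limits glycolysis, fell by 0.50 ± 0.09.

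Leaving out 1 library ended 6 of the 23 calls of 4OHT against DMSO. These were Pmaip1 and Polk without DMSO clone b (edgeR adjusted p = 0.059 and 0.074), Trp53inp1 without DMSO b, DMSO c or 4OHT a (0.07, 0.14 and 0.13), Phlda3 without DMSO c, 4OHT a or 4OHT c (0.13, 0.11 and 0.053), Zmat3 without DMSO b, 4OHT a or 4OHT c (0.26, 0.081 and 0.092) and Ckap2 without DMSO b, DMSO c, 4OHT a or 4OHT c (0.26, 0.19, 0.15 and 0.2). Ckap2 also missed the threshold with DESeq2 (adjusted p = 0.073) and Zmat3 with no filter on low counts (0.064). When only library totals were used for scaling, the median of all genes moved to -0.32 and the split of the members to 5 higher and 20 lower (7 and 21 when the 14 loci were also left out). Plk2 (0.31, adjusted p = 0.13) and Tnfrsf10b (0.30, adjusted p = 0.15) no longer passed and Eda2r turned to -0.031 (adjusted p = 0.91).

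**Figure D2:**
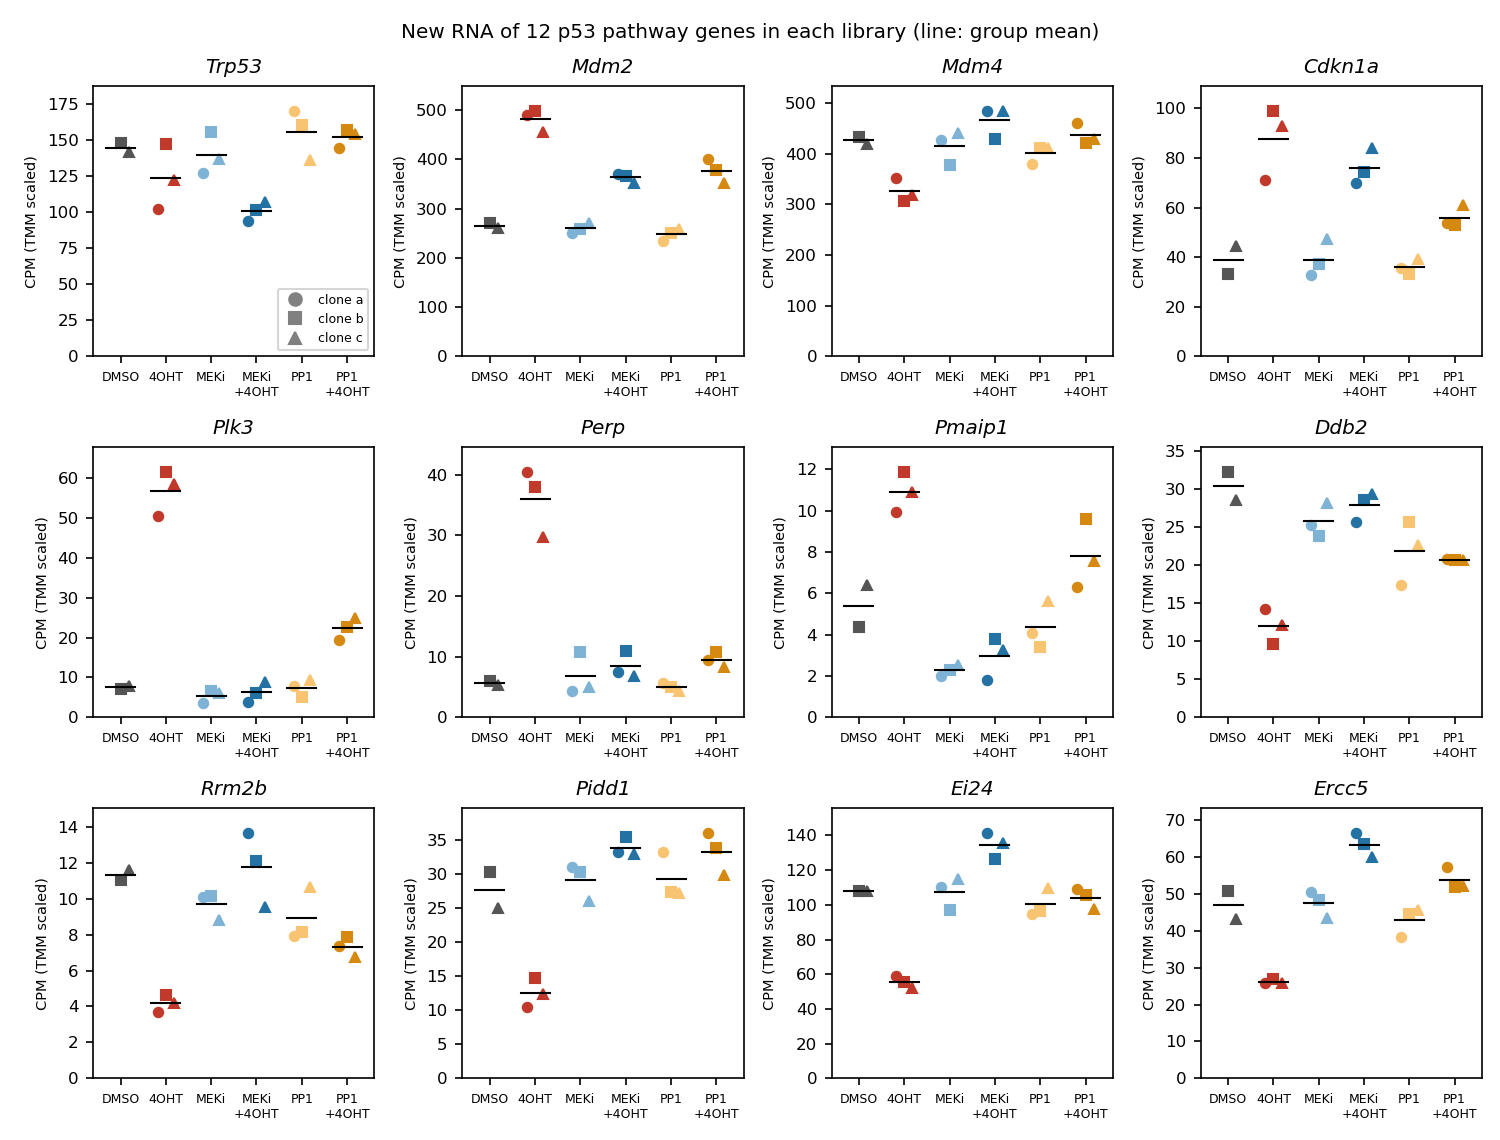
CPM after TMM scaling (vertical axes, from 0) of 12 p53 pathway genes in each of the 17 libraries, by group; symbols mark the clones and lines the group means. Plk3, Perp and Pmaip1 are highest with 4OHT alone, Mdm2 and Cdkn1a are raised in all 3 groups given 4OHT, and Ddb2, Rrm2b, Pidd1, Ei24 and Ercc5 are lowest with 4OHT alone.

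With MEKi present, 4OHT still raised a set of p53 targets, and hardly any fell. Of the 35 genes, 15 rose and 1 fell in MEKi with 4OHT against MEKi, where 7.65% of all genes rose and 7.03% fell. The members' median log2 fold change was 0.29, against 0.0044 for all genes, and 29 were positive. The largest rises were those of Cdkn1a, Plk2, Btg2, Tnfrsf10b, Phlda3 and Mdm2, and the fall was that of Trp53. None passed 2-fold in either direction. The neural markers summed to 8.93 to 11.4 CPM in MEKi and 4.46 to 5.09 with 4OHT added (1 of 2 tested lower), the 3 mesoderm markers to 3.59 to 7.82 and 1.86 to 2.94 (the 1 tested lower), and the stem cell markers to 3110 to 3440 and 2890 to 3150 (1 of 8 lower). The part of other cell types in the members' changes was not tested.

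Cdkn1a stood at 32.7, 37.1 and 47.3 CPM in MEKi and at 69.7, 74.2 and 83.9 in MEKi with 4OHT. It rose 1.93-fold (0.95 ± 0.14, edgeR adjusted p = 0.00011) with no overlap. Mdm2 went from 251, 258 and 272 CPM to 371, 367 and 353, a 1.4-fold rise (0.48 ± 0.07, adjusted p = 1.7e-05) in which all 3 clones moved up. Plk2 (0.74 ± 0.13), Btg2 (0.69 ± 0.12) and Gtse1 (0.29 ± 0.09) made up the rest of the 4 of 8 growth arrest genes that rose (50%, against 7.65% of all genes). Plk3, the gene with the largest rise without inhibitor, stood at 3.66, 6.54 and 6.21 CPM in MEKi and at 3.8, 6.09 and 8.82 in MEKi with 4OHT. These groups overlapped, and its change did not pass (0.19 ± 0.28, adjusted p = 0.71).

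Trp53 itself stood at 127, 156 and 137 CPM in MEKi and at 93.6, 102 and 107 in MEKi with 4OHT. It fell 1.39-fold with no overlap (-0.47 ± 0.11, edgeR adjusted p = 0.0045), while 15 other members rose. Mdm4, at 426, 377 and 441 CPM in MEKi and 485, 430 and 483 with 4OHT added, had overlapping groups and did not pass (0.17, adjusted p = 0.13), nor did Ppm1d (0.22, adjusted p = 0.071, and 0.043 with clone as a block).

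Of the cell death genes 6 of 15 rose and none fell (40% and 0%, against 7.65% and 7.03% of all genes). The risers were Tnfrsf10b (0.54 ± 0.09), Phlda3 (0.52 ± 0.12), Aen, an exonuclease of apoptosis (0.38 ± 0.09), Ei24 (0.33 ± 0.08), Trp53inp1 (0.30 ± 0.07) and Bax (0.27 ± 0.09). Ei24 went from 110, 97 and 115 CPM to 142, 127 and 136, so that it stood higher with 4OHT in every clone. Perp stood at 4.42, 10.8 and 5.05 CPM in MEKi and at 7.5, 11 and 6.86 with 4OHT added, groups that overlap (0.38 ± 0.25, adjusted p = 0.35). Pmaip1 was at 2.02, 2.29 and 2.52 CPM and then at 1.8, 3.79 and 3.23, with no passing change (0.35 ± 0.30, adjusted p = 0.49). Pidd1, at 31, 30.3 and 26 CPM in MEKi and 33.1, 35.3 and 32.9 in MEKi with 4OHT, did not pass either (0.22, adjusted p = 0.24). The other 6 members of the group (Bbc3, Fas, Eda2r, Apaf1, Zmat3 and Dram1) lay between -0.51 and 0.40 and did not pass. With clone as a block Bbc3, the BH3-only protein Puma, rose (0.40, edgeR adjusted p = 0.049).

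Of the repair genes 3 of 5 rose (60%, against 7.65% of all genes), Polk (0.43 ± 0.08), Xpc (0.43 ± 0.10) and Ercc5 (0.42 ± 0.09). Ercc5 stood at 50.6, 48.3 and 43.4 CPM in MEKi and at 66.6, 63.4 and 59.9 with 4OHT added, and the groups did not overlap. Rrm2b, at 10.1, 10.1 and 8.83 CPM and then 13.7, 12.1 and 9.51, had overlapping groups (0.29, adjusted p = 0.28), as had Ddb2, at 25.4, 23.9 and 28.2 CPM and then 25.6, 28.6 and 29.4 (0.10, adjusted p = 0.65). Tigar rose by 0.26 ± 0.08 on the log2 scale, and Sesn1 (-0.07) did not pass. Gdf15, at 2.15, 1.31 and 2.13 CPM in MEKi and 2.18, 2.4 and 3.43 in MEKi with 4OHT, did not pass (0.49 ± 0.38).

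The calls of Bax, Gtse1 and Tigar were near the threshold (edgeR adjusted p = 0.038, 0.03 and 0.037) and ended when any of several libraries was left out. Leaving out MEKi clone a, MEKi clone c or any library of MEKi with 4OHT gave edgeR adjusted p-values of 0.053 to 0.2 for Bax, 0.074 to 0.14 for Gtse1 and 0.063 to 0.19 for Tigar, whose call also ended without MEKi clone b (0.057). Without the 2 libraries of highest background, MEKi clone a and MEKi with 4OHT clone b, 12 of the 16 calls stood, and Bax (adjusted p = 0.15), Gtse1 (0.15), Tigar (0.1) and Phlda3 (0.069) did not. Scaled by library totals alone, the median of all genes was 0.17 and Trp53 (-0.29, adjusted p = 0.19), Ei24, Tigar and Bax no longer passed.

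With PP1 present, 17 members rose and 1 fell in PP1 with 4OHT against PP1, where 18.4% of all genes rose and 12.8% fell. How far PP1 blocked ERK2 Q103A, or MEKi blocked MEK, was not tested. The median log2 fold change was 0.30, against 0.0011 for all genes, and 29 members were positive. Plk3, Perp and Pmaip1, which had not passed with MEKi, rose here, though Plk3 and Perp by less than without inhibitor. Cdkn1a, Mdm2, Plk2, Btg2, Tnfrsf10b, Aen and Xpc rose as well, and Sesn1 fell. Of the stem cell markers 2 of 8 were higher and 1 lower, with sums of 3270 to 3670 CPM in PP1 and 3610 to 3840 with 4OHT added, and 1 of 4 tested endoderm markers was lower, with sums of 8.56 to 17.4 and 5.25 to 9.29. Their part in the members' changes was not tested.

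Plk3 stood at 7.91, 5.08 and 9.43 CPM in PP1 and at 19.4, 22.7 and 24.9 in PP1 with 4OHT, a 3.04-fold rise without overlap (1.60 ± 0.24, edgeR adjusted p = 6.9e-05). Tctex1d4, its overlapping neighbour, rose too (1.74 ± 0.37). Cdkn1a went from 35.7, 33.2 and 39.3 CPM to 53.6, 53.1 and 60.9, and all 3 libraries with 4OHT were higher (0.63 ± 0.15, adjusted p = 0.0029). Mdm2 went from 235, 250 and 259 CPM to 400, 379 and 352, a 1.52-fold rise (0.60 ± 0.07, adjusted p = 4.3e-07). Plk2 (0.66 ± 0.13), Btg2 (0.61 ± 0.13) and Gtse1 (0.43 ± 0.09) completed the 5 of 8 growth arrest genes that rose (62.5%, against 18.4% of all genes). Gadd45a, at 0.32, rose with clone as a block (edgeR adjusted p = 0.039, against 0.19 without it).

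Trp53, at 170, 160 and 136 CPM in PP1 and 144, 157 and 154 with 4OHT added, overlapped between the groups and did not pass (-0.03 ± 0.11, edgeR adjusted p = 0.85). Mdm4, at 379, 411 and 411 CPM and then 460, 421 and 429, did not overlap but missed the threshold (0.12 ± 0.07, adjusted p = 0.2). Ppm1d had a log2 fold change of 0.17 (adjusted p = 0.12).

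Of the cell death genes 8 of 15 rose and none fell (53.3% and 0%, against 18.4% and 12.8% of all genes). Perp stood at 5.62, 4.98 and 4.29 CPM in PP1 and at 9.48, 10.7 and 8.34 with 4OHT added, higher in every clone (0.97 ± 0.27, edgeR adjusted p = 0.0089). Pmaip1 went from 4.08, 3.38 and 5.64 CPM to 6.32, 9.62 and 7.55 (0.84 ± 0.26, adjusted p = 0.015). Tnfrsf10b (0.58 ± 0.09), Aen (0.55 ± 0.09), Phlda3 (0.44 ± 0.12), Bax (0.34 ± 0.09), Trp53inp1 (0.30 ± 0.07) and Eda2r (0.29 ± 0.07) rose as well. Ei24, at 94.9, 96.4 and 110 CPM and then 109, 106 and 97.6, overlapped between groups (0.05, adjusted p = 0.66). Pidd1, at 33.2, 27.3 and 27.2 CPM and then 36, 33.8 and 29.8, also overlapped (0.21, adjusted p = 0.21). Bbc3 (0.35), Fas (0.56), Apaf1 (0.03), Zmat3 (-0.01) and Dram1 (-0.36) did not pass.

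The repair genes Xpc (0.58 ± 0.10), Ercc5 (0.32 ± 0.09) and Polk (0.30 ± 0.08) rose, and Ercc5 went from 38.3, 44.4 and 45.7 CPM in PP1 to 57.2, 51.8 and 52.2 without overlap. Ddb2 stood at 17.4, 25.7 and 22.7 CPM and then at 20.8, 20.7 and 20.6, inside the range of PP1 alone (-0.12, edgeR adjusted p = 0.55). Rrm2b stood at 7.91, 8.16 and 10.7 CPM and then at 7.38, 7.87 and 6.75, just below every PP1 library (-0.29, adjusted p = 0.23). Sesn1 fell 1.46-fold (-0.55 ± 0.11, adjusted p = 0.00067), Tigar did not pass (0.07), and Gdf15, at 1.28, 1.29 and 0.858 CPM and then 1.53, 0.874 and 1.59, did not pass (0.22 ± 0.46).

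The calls of Perp (edgeR adjusted p = 0.062) and Pmaip1 (0.12) ended without PP1 with 4OHT clone b, that of Pmaip1 also without PP1 clone b (0.11), and those of Polk (0.1) and Ercc5 (0.1) without PP1 with 4OHT clone a. The call of Ercc5 ended too without PP1 clone a (0.069), the library with the largest share of counts in the 14 loci. Scaled by library totals alone, the median of all genes was 0.12 and Sesn1 (-0.43, adjusted p = 0.13), Eda2r, Polk and Ercc5 no longer passed.

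**Figure D3:**
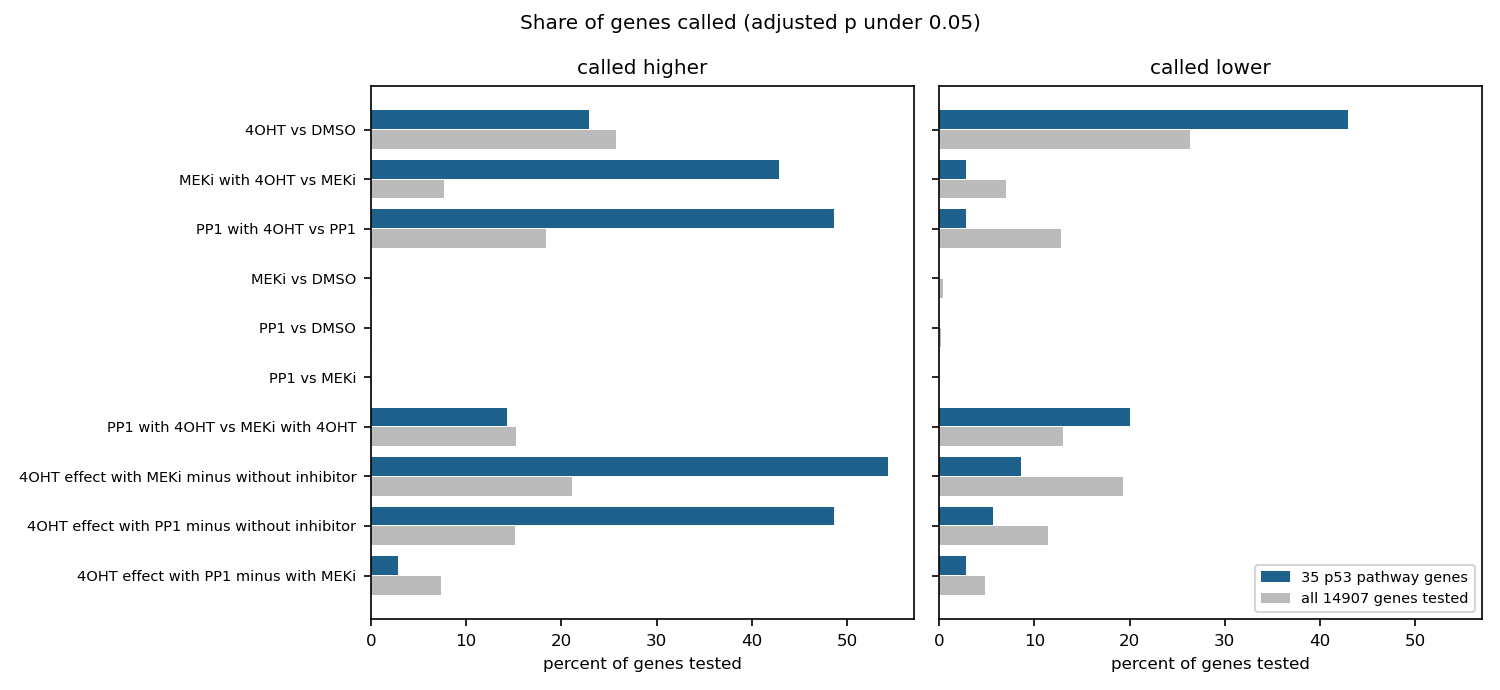
Percent of the 35 p53 pathway genes (blue bars) and of all 14907 tested genes (grey bars) called higher (left) or lower (right) at an adjusted p under 0.05, for 7 comparisons of groups and 3 differences between 4OHT effects. Without inhibitor the members exceed all genes in falls (42.9% against 26.3%). With an inhibitor they exceed them in rises (42.9% against 7.65% with MEKi and 48.6% against 18.4% with PP1). The shares were not matched for depth, which was higher for members (median summed count 8639 against 3070).

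Across the 3 comparisons of 4OHT with its own control, which share no library, 4 members (11.4%) rose in all: Cdkn1a, Mdm2, Plk2 and Tnfrsf10b. Of all 14907 genes 2.75% did. Another 4 rose without inhibitor and with PP1 but did not pass with MEKi (Plk3, Perp, Pmaip1 and Eda2r), as did 8.89% of all genes. For 5 members (14.3%) there was no call without inhibitor and a rise with both inhibitors (Btg2, Bax, Aen, Xpc and Gtse1), against 1.2% of all genes. Trp53inp1, Phlda3, Polk and Ercc5 (11.4% of the members) fell without inhibitor and rose with either inhibitor, which 0.127% of all genes did. None of these 4 kept all 3 calls under every alternative. Leaving out 1 library could end the fall of Trp53inp1, Phlda3 or Polk, and the rise with PP1 of Polk or Ercc5. Ei24 and Tigar fell without inhibitor and rose with MEKi (1.03% of all genes). A fall without inhibitor and no passing change with either was seen for 8 (Mdm4, Zmat3, Gdf15, Ddb2, Rrm2b, Pidd1, Apaf1 and Ckap2), 22.9% of the members against 14% of all genes. Sesn1 fell without inhibitor and with PP1 (7.19% of all genes), and Trp53 fell with MEKi alone of the 3 (1.35%). The other 6 (Ccng1, Bbc3, Fas, Gadd45a, Dram1 and Ppm1d) passed in none, as did 37.1% of all genes. With clone as a block these patterns change for Aen (a rise without inhibitor too), Ppm1d (rises without inhibitor and with MEKi), Bbc3 (a rise with MEKi) and Gadd45a (a rise with PP1). Whether an inhibitor changed the effect is answered by the tests of the differences that follow.

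The 4OHT effect was more positive with MEKi than without inhibitor for 19 members and more negative for 3, at 21.1% and 19.3% of all genes. With PP1 it was more positive for 17 and more negative for 2, at 15.1% and 11.4% of all genes. The 2 counts with PP1 were 14 and 4 with DESeq2's size factors in the fit, 15 and 4 with DESeq2, and 23 and 1 with library totals alone. They were 11 and 4 without DMSO clone c, 14 and 4 without 4OHT clone a, and 17 and 1 without PP1 clone c. The 2 counts with MEKi were 17 and 3 with DESeq2 or its size factors, and 23 and 2 with library totals alone. They were 13 and 3 without DMSO clone c, and 14 and 4 without 4OHT clone a or c. Without MEKi with 4OHT clone b they were 14 and 3, and without the 2 libraries of highest background 15 and 3. The median difference was 0.44 with MEKi and 0.48 with PP1, against 0.02 and 0.04 for all genes. These comparisons share the 4OHT and DMSO libraries, so the values are set side by side and not counted as independent. All 5 repair genes had a more positive effect with either inhibitor: Rrm2b (1.74 ± 0.26 with MEKi and 1.16 ± 0.27 with PP1), Ddb2 (1.42 ± 0.20 and 1.20 ± 0.20), Ercc5 (1.26 ± 0.14 and 1.16 ± 0.14), Polk (0.83 ± 0.12 and 0.70 ± 0.13) and Xpc (0.44 ± 0.15 and 0.60 ± 0.15). Of metabolism and secreted factors 3 of 3 passed with MEKi and 2 with PP1, with Gdf15 at 3.59 ± 0.74 and 3.32 ± 0.79 on few counts.

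Among cell death genes 7 of 15 were more positive and 1 more negative with either inhibitor (46.7% and 6.67%). Over all genes the shares were 21.1% and 19.3% with MEKi, and 15.1% and 11.4% with PP1. Pidd1 differed by 1.39 ± 0.19 with MEKi and 1.38 ± 0.19 with PP1, and Ei24 by 1.28 ± 0.12 and 1.01 ± 0.12. Perp was the negative one, at -2.28 ± 0.37 with MEKi (edgeR adjusted p = 3.6e-05) and -1.69 ± 0.38 with PP1 (adjusted p = 0.0023). In growth arrest Plk3 was the negative one, at -2.73 ± 0.38 and -1.31 ± 0.35. Gadd45a had a more positive effect with PP1 when clone was a block (0.63, adjusted p = 0.011, against 0.085 without it). The rises of Cdkn1a, Plk2 and Tnfrsf10b were not shown to differ from those without inhibitor: Cdkn1a differed by -0.22 ± 0.21 with MEKi (adjusted p = 0.43) and by -0.54 ± 0.21 with PP1 (adjusted p = 0.069, and 0.0038 with clone as a block), Plk2 by 0.12 and 0.05, and Tnfrsf10b by -0.06 and -0.01. Mdm2 rose less with MEKi (-0.38 ± 0.10, adjusted p = 0.0033) and had -0.26 ± 0.10 with PP1 (adjusted p = 0.056). The Mdm2 difference with MEKi depends on the scaling, for with library totals as the only one it was 0.093 (adjusted p = 0.79). Mdm4 was more positive with both (0.55 ± 0.11 and 0.51 ± 0.11).

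Some of these calls ended when 1 library was left out. With MEKi, leaving out 1 library ended the calls of Bax (4OHT a or c, DMSO c, MEKi a or c, or any of MEKi with 4OHT; edgeR adjusted p = 0.068 to 0.44) and Bbc3 (the same or DMSO b; 0.06 to 0.2). It also ended those of Gtse1 (4OHT a or c, DMSO b or c, MEKi c, or any of MEKi with 4OHT; 0.054 to 0.15), Btg2 (4OHT a or c, DMSO c or MEKi with 4OHT b; 0.053 to 0.19), Xpc (4OHT a, DMSO c, MEKi b or MEKi with 4OHT c; 0.056 to 0.16) and Ckap2 (4OHT c, DMSO b or c, MEKi c or MEKi with 4OHT b; 0.05 to 0.074). With PP1, leaving out DMSO c ended the calls of Tigar (0.079), Gtse1 (0.066) and Xpc (0.061), and leaving out PP1 c that of Plk3 (0.052). Those of Bax (4OHT a or c, DMSO c, PP1 b, or any of PP1 with 4OHT; 0.06 to 0.36), Aen (4OHT a, DMSO b or c, PP1 a, or any of PP1 with 4OHT; 0.053 to 0.16) and Ckap2 (4OHT a or c, DMSO b or c, or PP1 with 4OHT a or b; 0.086 to 0.19) ended too. With DESeq2, Bax (0.1) and Bbc3 (0.073) missed the threshold with MEKi, and Bax (0.064) and Aen (0.059) with PP1. Scaled by library totals alone, Plk3 missed it with PP1 (-0.90, adjusted p = 0.054).

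**Figure D4:**
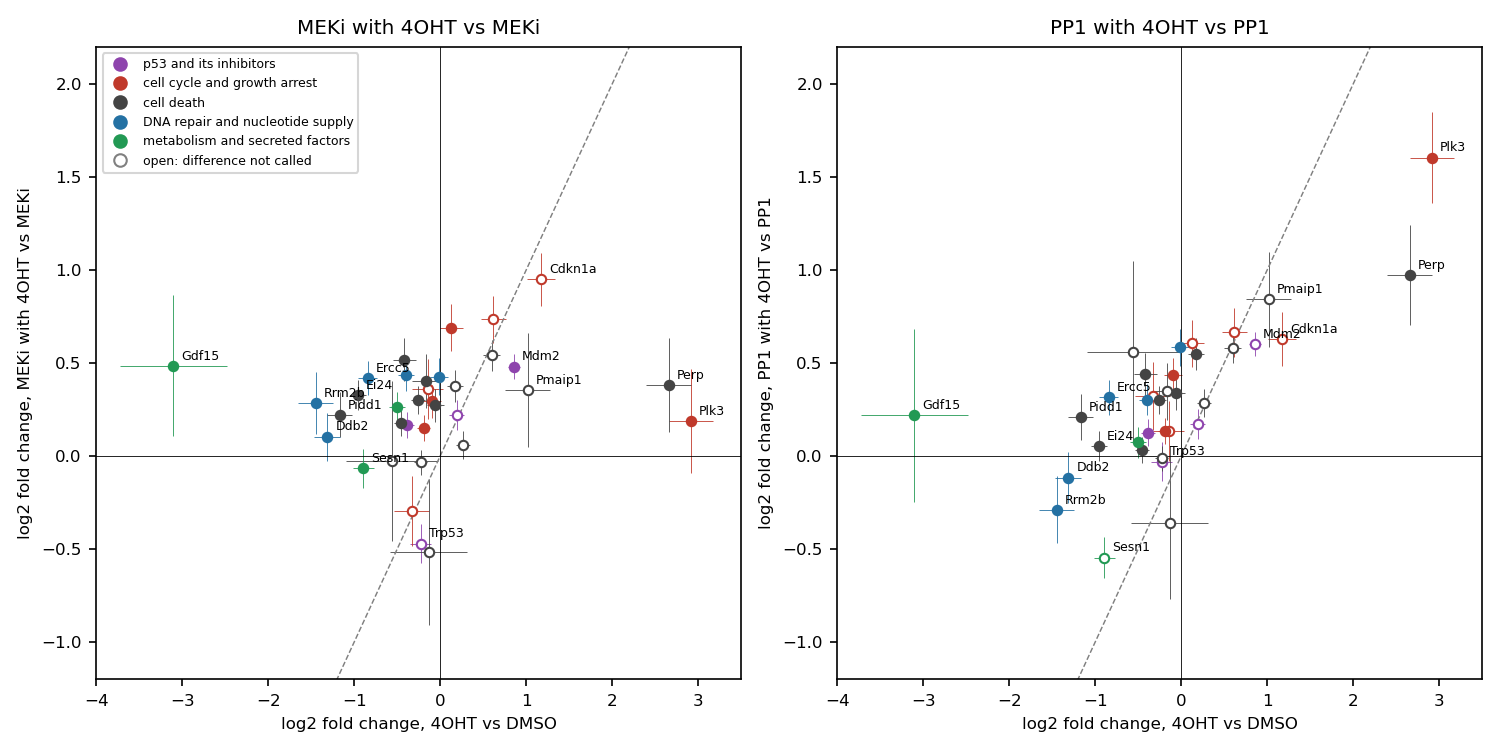
Log2 fold change of the 35 genes in 4OHT vs DMSO (horizontal axes) against the same with MEKi (left, vertical axis) or PP1 (right, vertical axis); bars are approximate standard errors, colours are roles, the dashed line marks equal effects and filled points are genes whose difference passed. Plk3 lies at 2.92 without inhibitor, 0.19 with MEKi and 1.60 with PP1, and Pidd1 and Ercc5, left of 0, lie above the dashed line in both panels.

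Set directly against each other with 4OHT present, the inhibitors left different levels of 12 members, 5 higher and 7 lower in PP1 with 4OHT than in MEKi with 4OHT (4 and 3 when scaled by library totals alone, 4 and 11 when the 14 loci were also left out), at 15.2% and 13% of all genes. Higher with PP1 were Plk3 (1.83 ± 0.23, edgeR adjusted p = 6.4e-06), Pmaip1 (1.41 ± 0.26, adjusted p = 0.00016), Gadd45a (0.92 ± 0.18), Trp53 (0.59 ± 0.11) and Gtse1 (0.28 ± 0.09). Gadd45a stood at 30.9, 35.9 and 30.3 CPM with PP1 and at 17.1, 21.4 and 12.9 with MEKi, with no overlap. Lower with PP1 were Sesn1 (-0.70 ± 0.11), Rrm2b (-0.68 ± 0.17), Cdkn1a (-0.44 ± 0.14), Ddb2 (-0.43 ± 0.13), Ei24 (-0.37 ± 0.08), Tigar (-0.23 ± 0.08) and Apaf1 (-0.20 ± 0.07), and with clone as a block also Gdf15 (-0.996, adjusted p = 0.044) and Ercc5 (-0.24, adjusted p = 0.035). Cell type markers differed between the same groups: with PP1 the stem cell markers summed to 3610 to 3840 CPM against 2890 to 3150 with MEKi (5 of 8 higher, 1 lower), the endoderm markers to 5.25 to 9.29 against 10.9 to 16.9 (3 of 4 tested lower), the trophoblast markers to 5.84 to 8.94 against 2.94 to 4.69, the neural markers to 8.43 to 14.3 against 4.46 to 5.09 and the mesoderm markers to 3.84 to 5.65 against 1.86 to 2.94 (1 higher in each of these 3 lists). Their part in the differences was not tested. The 4OHT effect itself differed between inhibitors for 1 member in each direction, at 7.41% and 4.86% of all genes: Plk3 by 1.42 ± 0.38 (adjusted p = 0.017) and Sesn1 by -0.48 ± 0.15 (adjusted p = 0.04). With clone as a block the count was 4 in place of 2, with Trp53 (0.44, adjusted p = 0.02) and Gadd45a (0.63, adjusted p = 0.014) added.

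Leaving out 1 library ended both calls of the last kind, Plk3 without MEKi b, MEKi c or PP1 b (edgeR adjusted p = 0.05 to 0.077) and Sesn1 without MEKi b, MEKi with 4OHT b, PP1 b, PP1 c, PP1 with 4OHT a or PP1 with 4OHT c (0.051 to 0.1). Of the 12 differences in level, Cdkn1a did not pass without MEKi with 4OHT clone c (0.065), PP1 with 4OHT a (0.059) or PP1 with 4OHT b (0.063), Gtse1 without MEKi with 4OHT b or c or PP1 with 4OHT a or b (0.082 to 0.091), Tigar without MEKi with 4OHT c or PP1 with 4OHT b or c (0.11 to 0.14), and Apaf1 without MEKi with 4OHT a or b or PP1 with 4OHT a or c (0.053 to 0.17).

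Without 4OHT the inhibitors moved no member past the threshold. In MEKi against DMSO 0.0805% of all genes were higher and 0.449% lower, in PP1 against DMSO 0.0805% and 0.161%, and in PP1 against MEKi 0.0738% and 0%. The members' medians were -0.03, -0.05 and -0.04. The member nearest to a call was Pmaip1, lower in MEKi than in DMSO by 1.22 ± 0.30 on the log2 scale (edgeR adjusted p = 0.077, and 0.044 with DESeq2). Its DMSO libraries, at 4.36 and 6.39 CPM, lay above all MEKi libraries. Groups did not overlap for 8, 8 and 3 of the 35 members in these comparisons, and for 26.8%, 28.5% and 7.4% of all genes, so the members were near the background.

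Other genes of the pathway, from lists of its upstream kinases and cofactors and of further described targets, were set beside the members. These lists too were chosen with earlier results of these data known. Of 27 tested kinases and cofactors, 9 rose and 5 fell with 4OHT against DMSO (33.3% and 18.5%, against 25.7% and 26.3% of all genes, median 0.15). Ppp1r13l, the inhibitory ASPP protein of p53, rose from 18.5 ± 1.61 CPM (SD, n = 2) to 78.8 ± 5.87 (n = 3), and Sirt1, a deacetylase of p53, from 208 ± 3.25 to 477 ± 28.4. The acetyltransferase Ep300 rose by 0.69 ± 0.07 on the log2 scale, and Prkdc, the DNA-dependent protein kinase, had a log2 fold change of -1.11 ± 0.09. With MEKi 3 of the 27 rose and 5 fell (7.65% and 7.03% of all genes), and with PP1 7 rose and 4 fell (25.9% and 14.8%, against 18.4% and 12.8%). Sirt1 went opposite ways, at -0.36 ± 0.07 with MEKi and 0.84 ± 0.07 with PP1, and this difference of 4OHT effects passed (1.20 ± 0.10, edgeR adjusted p = 1.3e-08). Prkdc fell in both, by 0.47 ± 0.08 and 0.64 ± 0.08.

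Of 25 further targets tested, 6 rose and 11 fell with 4OHT against DMSO (24% and 44%, against 25.7% and 26.3% of all genes, median -0.30), so that the rises were near the background. Sertad1, a cofactor of E2F, rose from 4.77 ± 0.584 CPM (SD, n = 2) to 53.8 ± 6.34 (n = 3), and Ephx1, an epoxide hydrolase, fell from 14.6 ± 1.55 to 4.46 ± 0.451. Klf4, a pluripotency factor, fell by 1.01 ± 0.08 on the log2 scale and Steap3, a metalloreductase, by 2.13 ± 0.24. With MEKi 7 rose and 2 fell (28% and 8%, against 7.65% and 7.03% of all genes, median 0.29), and with PP1 8 rose and 3 fell (32% and 12%, against 18.4% and 12.8%, median 0.13). Pml, the organiser of nuclear bodies, fell with MEKi (-0.49 ± 0.06) and rose with PP1 (0.33 ± 0.06). Bloc1s2 rose with MEKi (0.60 ± 0.11), and Sesn2, a sestrin like Sesn1, rose with PP1 (0.83 ± 0.09). The 4OHT effect on these targets was more positive with MEKi than without inhibitor for 14 and more negative for 4 (56% and 16%, against 21.1% and 19.3% of all genes), and with PP1 for 10 and 2 (40% and 8%, against 15.1% and 11.4%).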

How the data were processed

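The authors deposited whole-number counts per gene symbol for 17 libraries of ethynyl uridine-labelled RNA. STAR, featureCounts and the build mm10 are named in the submitters' processing notes; their versions, the annotation, the strand setting and the feature type are not given in the sources used. All 35 members matched GENCODE mouse release 21, whose coordinates are printed. Counts were fitted in edgeR 4.0.16 (R 4.3.3): TMM scaling, filterByExpr by group, robust quasi-likelihood, all 17 libraries, 1 term per group and 11 residual degrees of freedom. P-values were Benjamini-Hochberg adjusted over 14907 genes, with a threshold of 0.05. This gave 7 comparisons of groups and 3 differences between 4OHT effects. Errors of log2 fold changes are approximate, the value over the square root of F. Library totals set the precision: 3 counts equal 0.247 to 0.766 CPM.

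The members and lists were chosen with earlier results of these data known. All 35 are named; values in every library are given for Trp53, Mdm2, Mdm4 and Cdkn1a and for members called with a log2 change of at least 1 with 4OHT or in a difference between 4OHT effects, and up to 4 called genes of smallest adjusted p per comparison of each further list. Gadd45a with 4OHT and an inhibitor was given in full after its values were seen. Alternatives were DESeq2's size factors, library totals alone (also without the high-count loci), other filters, DESeq2 1.42.0, limma-voom (limma 3.58.1), clone as a replicate block, fits of the compared libraries alone, each library left out, and without the 2 libraries of highest background. Libraries were paired across groups by the clone letters of the labels. The column taken as PP1 clone c carries an extra r before its clone letter, which the labels do not explain. After group means were removed, same-clone pairs had a mean correlation across genes of 0.086 (-0.15 to 0.36, 16 of 40 above 0.1) and other pairs -0.043, and a value with the block stands beside each call it changes. None of the 16 pairs of libraries within a group agreed within sampling noise.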

Additional observations from a re-analysis of the deposited data

Results flagged for a closer look

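The test of the difference between 4OHT effects singled out members whose response to 4OHT was not the same with and without an inhibitor. All values are log2 differences, the 4OHT effect under an inhibitor minus that without one, from the edgeR fit at an adjusted p under 0.05.

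With MEKi the difference was at least 1 for Gdf15 (3.59), Rrm2b (1.74), Ddb2 (1.42), Pidd1 (1.39), Ei24 (1.28) and Ercc5 (1.26). It was smaller but positive for Phlda3 (0.93), Polk (0.83), Sesn1 (0.83), Tigar (0.76), Apaf1 (0.63), Bbc3 (0.57), Btg2 (0.56), Trp53inp1 (0.56), Mdm4 (0.55), Xpc (0.44), Gtse1 (0.39), Ckap2 (0.35) and Bax (0.33). The negative differences were those of Mdm2 (-0.38), Perp (-2.28) and Plk3 (-2.73).

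With PP1 the difference was at least 1 for Gdf15 (3.32), Pidd1 (1.38), Ddb2 (1.20), Ercc5 (1.16), Rrm2b (1.16) and Ei24 (1.01). Smaller positive differences were those of Phlda3 (0.85), Polk (0.70), Xpc (0.60), Tigar (0.57), Trp53inp1 (0.56), Gtse1 (0.53), Mdm4 (0.51), Apaf1 (0.49), Bax (0.39), Aen (0.38) and Ckap2 (0.33). Negative ones were Plk3 (-1.31) and Perp (-1.69). Both sets share the 4OHT and DMSO libraries.

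Between the inhibitors, the 4OHT effect with PP1 exceeded that with MEKi for Plk3 (1.42) and was below it for Sesn1 (-0.48). No explanation of these differences was tested.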

How the results depend on the processing

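In MEKi against DMSO, 0 members passed in the main fit, but 1 (Pmaip1) passed with no filter on low counts and 1 with DESeq2. In PP1 with 4OHT against MEKi with 4OHT, 7 passed with library totals as scaling in place of 12. The 2 calls of the 4OHT effect with PP1 minus that with MEKi became 1 with library totals and 4 with clone as a replicate block, and leaving out 1 library gave 0 to 3. Reversed with library totals were Eda2r in 4OHT against DMSO (-0.031) and Mdm2 in the 4OHT effect with MEKi minus that without inhibitor (0.093); their adjusted p-values were 0.91 and 0.79. Of all genes called in 4OHT against DMSO, 49.4% were rises in the main fit and 21.1% with library totals. The cause was not tested.

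Calls that stood under every alternative run were 14 of 23 in 4OHT against DMSO, 10 of 16 in MEKi with 4OHT against MEKi, 12 of 18 in PP1 with 4OHT against PP1, 6 of 12 in PP1 with 4OHT against MEKi with 4OHT, and 15 of 22, 12 of 19 and 0 of 2 in the differences between 4OHT effects (with MEKi, with PP1, and between them). The block of clones ended no call and added 11, each given with the account of its comparison. Where 1 DMSO library is left out, the other is assumed to vary like the other groups. Depth limits Gdf15, Fas and Dram1 most.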
